A study of Mus musculus with 8 samples.

Results

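The 36 genes described here encode proteins that carry a cell through mitosis: the cyclins and kinases that start it, the checkpoint that times it, the kinetochores and motors that move chromosomes, and the proteins of the cleavage furrow. Members were chosen by name from the 26709 genes of the deposited table, as a set of well-known mitosis and spindle genes. The choice was made with earlier results of these data known, so the counts of members below are descriptions. All 36 were present and passed the low-count filter. Levels were compared between 4 tumours treated with GrB-Fc-KS49 and 4 treated with IgG. GrB-Fc-KS49 is a human fusion protein built to bring granzyme B, the death-inducing protease of cytotoxic lymphocytes, to cells with the surface protein EMP2. Its sample label reads Granzyme-B. All 8 tumours were EMT6 tumours, from a mouse mammary carcinoma cell line, grown in syngeneic Balb/c mice labelled WT, and treatment was given 3 times over 10 days, per the labels. The labels do not give ages, doses or the kind of IgG. They also do not say that the 4 tumours of a group came from separate mice, and p-values here measure only how these tumours differ among themselves.

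Dividing cells make most of these transcripts in the G2 phase and in mitosis. A cell leaving G1 first relieves the repression that the DREAM complex holds on such genes at a short promoter element, the cell cycle genes homology region, and the factors B-Myb and FOXM1 then drive their transcription before cyclin B and CDK1 bring on mitosis. In tumours their summed level is widely read as a measure of how many cells are cycling. In bulk tumour RNA, fewer cycling cells and less of each transcript per cycling cell cannot be told apart.

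Promoter windows were available for 31 of the 36 genes, from RefSeq on GRCm38.p6 and spanning 250 bases before to 50 bases after the annotated start. TTTGAA, the core of the cell cycle genes homology region, was found on either strand in 24 of the 31, or 77.4%, against 17.9% of 32851 promoters of the same length. A member counted as holding a motif if any of its windows did, 32 windows in all, while the background was counted per window. CCAAT was found in 22 of them, or 71.0%, against 37.4% of all promoters, and both motifs stood together in 19, or 61.3%, against 6.95%. The variant TTTAAA was found in 11 and TTCGAA in 3, or 35.5% and 9.68%, against 13.2% and 1.56% of all promoters. None of the 4 motifs contains another, and a match is a description of the letters only. The promoters of the 6 members with the smallest unadjusted p that hold TTTGAA are given here on their own strand, from 250 bases before to 30 bases after the start, because they let the shared element be read beside the levels that follow. Capitals mark TTTGAA and CCAAT and their reverse complements TTCAAA and ATTGG.
Mki67, chr7:135716350-135716629, minus strand: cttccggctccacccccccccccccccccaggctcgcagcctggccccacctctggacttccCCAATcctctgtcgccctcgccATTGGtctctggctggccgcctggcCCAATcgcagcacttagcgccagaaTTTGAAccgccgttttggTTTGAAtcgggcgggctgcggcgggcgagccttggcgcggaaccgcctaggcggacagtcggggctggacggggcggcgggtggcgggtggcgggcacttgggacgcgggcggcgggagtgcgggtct
Kif11, chr19:37376132-37376411, plus strand: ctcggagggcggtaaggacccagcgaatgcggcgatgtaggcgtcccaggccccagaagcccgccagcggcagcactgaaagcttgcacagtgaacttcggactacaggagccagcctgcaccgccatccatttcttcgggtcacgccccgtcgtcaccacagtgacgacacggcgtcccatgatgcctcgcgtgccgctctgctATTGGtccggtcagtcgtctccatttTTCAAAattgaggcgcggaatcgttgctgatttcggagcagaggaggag
Kif14, chr1:136467598-136467877, plus strand: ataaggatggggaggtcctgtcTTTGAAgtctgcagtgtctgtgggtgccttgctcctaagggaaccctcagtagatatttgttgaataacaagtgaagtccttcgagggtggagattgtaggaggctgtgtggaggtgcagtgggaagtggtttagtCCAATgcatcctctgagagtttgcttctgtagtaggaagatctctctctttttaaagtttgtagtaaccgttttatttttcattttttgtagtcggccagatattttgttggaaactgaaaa
Anln, chr9:22389177-22389456, minus strand: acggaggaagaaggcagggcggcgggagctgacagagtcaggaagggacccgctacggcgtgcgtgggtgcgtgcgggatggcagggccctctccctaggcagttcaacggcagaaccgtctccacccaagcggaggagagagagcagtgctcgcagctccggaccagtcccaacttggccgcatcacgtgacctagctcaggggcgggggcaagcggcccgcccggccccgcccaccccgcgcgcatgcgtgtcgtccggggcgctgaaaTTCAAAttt
Bub1b, chr2:118597961-118598240, plus strand: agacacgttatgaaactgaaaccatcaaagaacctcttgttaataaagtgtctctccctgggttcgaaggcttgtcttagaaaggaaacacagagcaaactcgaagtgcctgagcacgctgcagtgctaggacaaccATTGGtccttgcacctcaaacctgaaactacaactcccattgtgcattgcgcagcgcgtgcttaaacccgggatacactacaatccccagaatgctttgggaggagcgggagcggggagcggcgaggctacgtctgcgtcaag
Kif4, chrX:100625815-100626094, plus strand: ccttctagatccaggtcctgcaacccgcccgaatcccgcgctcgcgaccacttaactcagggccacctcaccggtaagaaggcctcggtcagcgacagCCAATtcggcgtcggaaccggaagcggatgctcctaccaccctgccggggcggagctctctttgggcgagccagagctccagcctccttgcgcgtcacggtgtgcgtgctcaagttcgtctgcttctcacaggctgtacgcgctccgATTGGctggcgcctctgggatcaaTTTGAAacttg
In Kif11, Anln and Kif4 the TTTGAA element lay within the last bases of the printed stretch, around the annotated start, whereas in Kif14 the match lay near its upstream end. Mki67 held a pair of TTTGAA elements close to each other. The match of Bub1b begins 41 bases after the start and so lies past the printed stretch. Of the 6 members with a positive log2 fold change, Ccnb2, Cdk1, Aurka, Ube2c and Cenpa held the motif, and the 7 members whose window held none were Birc5, Bub1, Ccnb1, Cenpe, Mad2l1, Nuf2 and Nusap1.

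Libraries held 74.0 to 82.6 M (1e6) estimated counts, and no pair of libraries was identical. Levels are in CPM, counts scaled to 1e6 per library after trimmed mean of M values (TMM) scaling, and log2 fold changes are GrB-Fc-KS49 over IgG. The label calls the samples epithelial breast tumor cells, but the material is whole tumour. The keratin Krt8 averaged 528 CPM across GrB-Fc-KS49 tumours and 444 CPM across IgG tumours. Epcam averaged 8.16 CPM in GrB-Fc-KS49 and 4.10 CPM in IgG tumours, and Cdh1 14.1 CPM in GrB-Fc-KS49 and 7.59 CPM in IgG tumours. Cdh1 was at 6.9, 36.9, 6.22 and 6.47 CPM across GrB-Fc-KS49 replicates 1 to 4. Its IgG tumours ran from 4.05 to 9.07 CPM, so only replicate 2 lay above them. Epcam was also highest in replicate 2, with replicates 3 and 4 above and replicate 1 below the IgG range of 3.19 to 4.46 CPM. Cldn7 was under 0.5 CPM in every library. Markers of other cell types were summed per tumour. Of the skeletal muscle markers, all 12 had a higher mean in the GrB-Fc-KS49 group and none was under 0.5 CPM in every IgG tumour. Their sums were 2730, 346, 436 and 48.6 CPM across GrB-Fc-KS49 replicates 1 to 4, against 49.5 to 237 CPM in IgG tumours. All 9 skin markers had a higher mean in that group, and 6 of them were under 0.5 CPM in every IgG tumour. The skin sums were 22.7, 2274, 17.7 and 10.6 CPM across GrB-Fc-KS49 replicates 1 to 4, against 8.58 to 18.1 CPM in IgG tumours. Adipocyte markers (10 of 10 higher) summed to 139, 74.6, 448 and 78.0 CPM across GrB-Fc-KS49 replicates 1 to 4, against 50.9 to 90.1 CPM in IgG tumours. T cell markers (12 of 12 higher) ran from 15.1 to 85.0 CPM in GrB-Fc-KS49 tumours, against 11.6 to 18.7 CPM in IgG tumours. Macrophage markers (9 of 10 higher) ran from 1493 to 3268 CPM in GrB-Fc-KS49 tumours, against 1163 to 1505 CPM in IgG tumours. The ranges of the groups overlapped for each of these 5 lists, and also for the epithelial list (477 to 828 CPM in GrB-Fc-KS49 and 483 to 565 CPM in IgG tumours), fibroblasts (6216 to 16640 CPM in GrB-Fc-KS49 and 8655 to 14554 CPM in IgG tumours), neutrophils (32.3 to 146 CPM in GrB-Fc-KS49 and 26.7 to 55.3 CPM in IgG tumours) and endothelium (197 to 307 CPM in GrB-Fc-KS49 and 151 to 291 CPM in IgG tumours). B cell markers, 8 of 8 under 0.5 CPM in every IgG tumour, summed to 1.44 to 5.81 CPM in GrB-Fc-KS49 tumours, against 0.871 to 1.24 CPM in IgG tumours. The part of these other cells in the members' values was not tested.

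Most mitosis and spindle genes had lower levels in GrB-Fc-KS49 tumours than in IgG tumours, by a modest amount. Of the 36, 30 had a negative log2 fold change and 6 a positive one, and the median was -0.22, against 0.03 over all 19718 genes tested. At an unadjusted p under 0.05 in edgeR, 21 members were lower, or 58.3%, where 17.8% of all genes tested were lower, and 2 were higher, Birc5 and Cenpa, where 17.3% of all genes were higher. All 4 GrB-Fc-KS49 tumours lay below all 4 IgG tumours for 20 members, or 55.6%, against 15.3% of all genes, and above them for 1, Birc5, against 10.3% of all genes. None of the 36 passed a Benjamini-Hochberg (BH) adjusted p of 0.05 in edgeR, where the smallest value was 0.0619; 0% of all genes tested passed it. DESeq2 on the same counts called 17 members lower and 1, Birc5, higher at an adjusted p under 0.05, with a background of 12.6% and 11.5% of all genes. Under limma-voom there were 0 such members, against 0.00507% of all genes, and 4, all lower, when it weighted the samples, where 4.08% of all genes were lower and 2.34% higher. The edgeR count depended on single tumours: 15 members were called lower without GrB-Fc-KS49 replicate 4, against 10.0% of all genes, and 3 without replicate 1, Ccnb1, Kif11 and Aspm, against 4.09% of all genes. The separation of the groups was narrow for many members: the count lower without overlap was 11 under upper quartile scaling, against 11.7% of all genes, and 12 on library totals alone, against 13.6% of all genes. In the fit with length and GC trends removed, described further on, 14 members were lower at an unadjusted p under 0.05. That was 38.9%, against 16.1% of all genes.

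**Figure D1:**
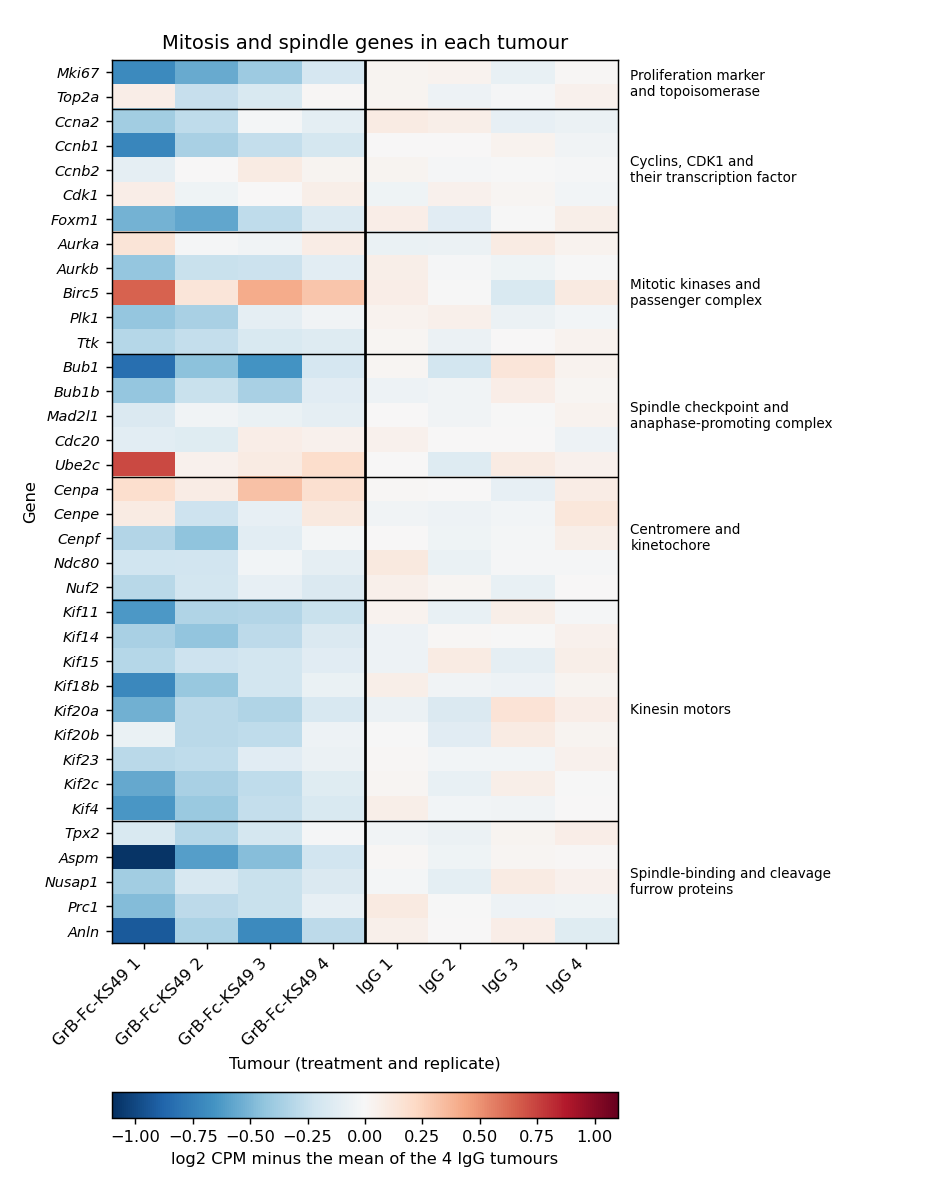
Level of each member in each tumour, as log2 CPM minus the mean log2 CPM of the 4 IgG tumours, with genes down the page by role and tumours across it. Blue is lower and red higher; the GrB-Fc-KS49 columns are mostly blue, most strongly in replicate 1 and least in replicate 4, with medians of -0.34, -0.28, -0.20 and -0.10, and Birc5, Ube2c and Cenpa stand out in red.

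Summed over the 36 genes, the level was 2775, 2735, 2933 and 3157 CPM across GrB-Fc-KS49 replicates 1 to 4, against 3346, 3229, 3288 and 3337 CPM in IgG replicates 1 to 4. Every treated sum lay below every IgG sum, and replicate 4 was closest to the IgG tumours. Relative to the IgG mean, the median member differed by -0.34, -0.28, -0.20 and -0.10 on the log2 scale in GrB-Fc-KS49 replicates 1 to 4. Of the 36 members, 23 had their lowest value of the 8 tumours in GrB-Fc-KS49 replicate 1 and 8 in replicate 2, where 29.4% and 7.87% of all genes tested had theirs. The highest value lay in replicate 1 for 5 members, and for 30.7% of all genes. The treated tumours also differed more among themselves: the coefficient of variation was larger in the GrB-Fc-KS49 group for 35 of 36 members, with a median of 10.2% across GrB-Fc-KS49 tumours and 4.18% in IgG tumours, and it was larger there for 78.9% of all genes tested.

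Mki67, which encodes the Ki-67 protein that coats mitotic chromosomes and is the standard marker of proliferating cells (chromosome 7, 135291513 to 135318090, minus strand, GRCm39), was at 214, 236, 263 and 306 CPM across GrB-Fc-KS49 replicates 1 to 4, against 354, 356, 329 and 352 CPM across IgG replicates 1 to 4. The groups did not overlap, and within the treated group replicate 4 was nearest the IgG tumours. The log2 fold change was -0.45 (SE 0.11, edgeR BH-adjusted p = 0.0619). Top2a, the topoisomerase that untangles sister chromatids, did not follow it. Its level was 337, 269, 285 and 323 CPM across GrB-Fc-KS49 replicates 1 to 4, against 326, 307, 316 and 331 CPM across IgG replicates 1 to 4. The groups overlapped, with GrB-Fc-KS49 replicate 1 the highest of all 8. Top2a's log2 fold change was -0.08 (SE 0.08, edgeR BH-adjusted p = 0.528).

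The cyclins and their partner kinase did not move alike. Ccnb1, which encodes the mitotic cyclin B1, was at 35.4, 45.4, 48.4 and 50.8 CPM across GrB-Fc-KS49 replicates 1 to 4, against 58.1, 58, 59.4 and 56.5 CPM across IgG replicates 1 to 4. All treated tumours were below all IgG tumours, whose 4 values lay close together. Ccnb1's log2 fold change was -0.37 (SE 0.11, edgeR BH-adjusted p = 0.0667). Ccnb2, the related cyclin B2, was at 49.4, 53.1, 56.3 and 53.9 CPM across GrB-Fc-KS49 replicates 1 to 4, against 54, 52.3, 52.5 and 52.4 CPM across IgG replicates 1 to 4. Ccnb2's log2 fold change was 0.01 (SE 0.06, edgeR BH-adjusted p = 0.921). Cdk1, the kinase that both cyclins activate, had 134 ± 5.26 CPM across GrB-Fc-KS49 tumours and 132 ± 3.97 CPM across IgG tumours (SD, n = 4 each), with overlapping groups. Cdk1's log2 fold change was 0.02 (SE 0.06, edgeR BH-adjusted p = 0.793). Ccna2, cyclin A2 of S and G2 phase, had 161 ± 18 CPM across GrB-Fc-KS49 tumours and 184 ± 11.7 CPM across IgG tumours (SD, n = 4 each). Ccna2's log2 fold change was -0.19 (SE 0.09, edgeR BH-adjusted p = 0.173); GrB-Fc-KS49 replicates 1 and 2 were the 2 lowest tumours and replicate 3 lay inside the IgG range. Foxm1, the transcription factor of G2 and M genes, was at 89.7, 86.9, 106 and 116 CPM across GrB-Fc-KS49 replicates 1 to 4, against 135, 118, 128 and 134 CPM across IgG replicates 1 to 4. The groups did not overlap, replicate 4 coming closest to the lowest IgG tumour. Foxm1's log2 fold change was -0.37 (SE 0.10, edgeR BH-adjusted p = 0.0631).

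**Figure D2:**
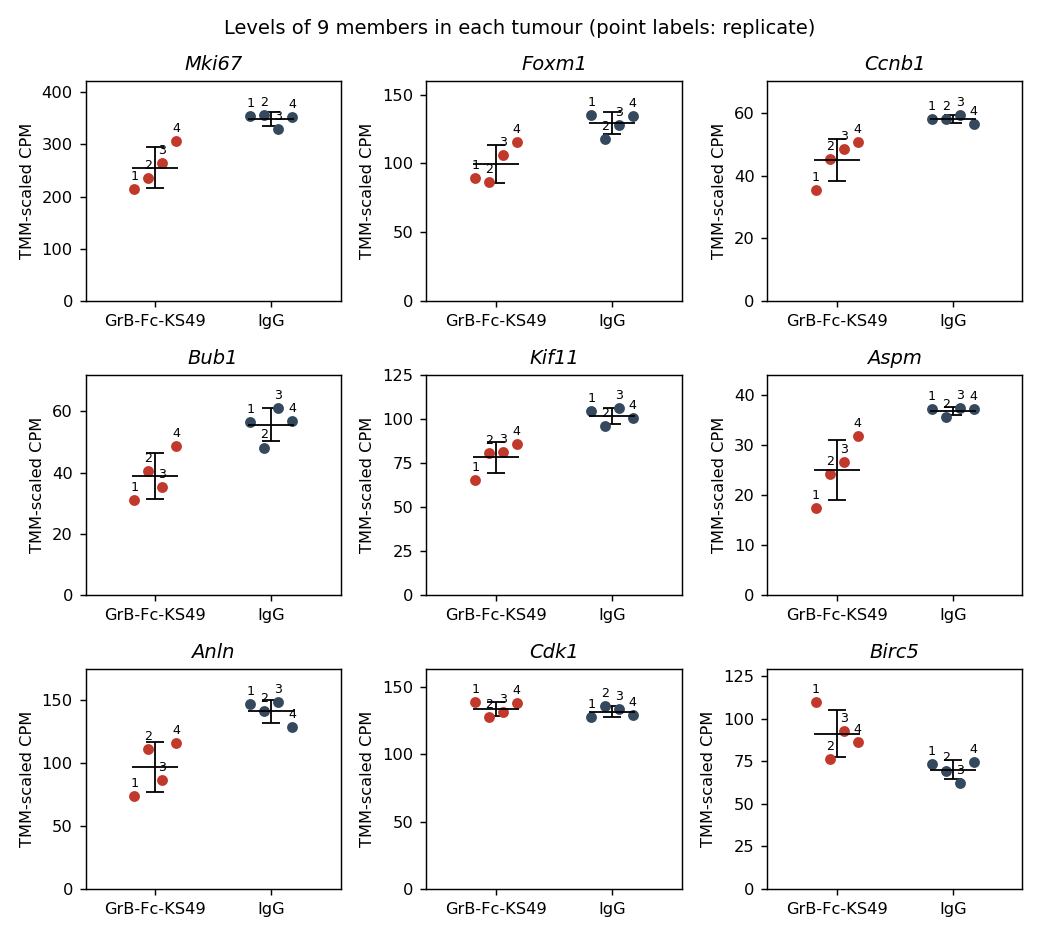
TMM-scaled CPM (vertical axis from 0) of 9 members in each tumour, GrB-Fc-KS49 left of IgG; each point is 1 tumour labelled by its replicate, the horizontal bar is the mean and the whisker the SD of 4. Mki67, Foxm1, Ccnb1, Kif11, Aspm and Anln show no overlap with the treated tumours lower, Bub1 overlaps by 1 tumour, Cdk1 overlaps fully and Birc5 is higher in all 4 treated tumours.

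Among the mitotic kinases, Aurkb, the kinase of the chromosomal passenger complex that corrects faulty chromosome attachments, was at 31.7, 35.8, 35.9 and 39 CPM across GrB-Fc-KS49 replicates 1 to 4, against 44.3, 42.2, 41 and 42.4 CPM across IgG replicates 1 to 4. The treated tumours were all lower. Aurkb's log2 fold change was -0.25 (SE 0.08, edgeR BH-adjusted p = 0.0682). Ttk, the checkpoint kinase also called MPS1, had 22.8 ± 1.29 CPM across GrB-Fc-KS49 tumours and 26.6 ± 0.81 CPM across IgG tumours (SD, n = 4 each), again without overlap. Ttk's log2 fold change was -0.22 (SE 0.07, edgeR BH-adjusted p = 0.0718). Plk1, polo-like kinase 1, which acts from mitotic entry to cytokinesis, had 69.2 ± 8.94 CPM across GrB-Fc-KS49 tumours and 80.6 ± 3.06 CPM across IgG tumours (SD, n = 4 each). Plk1's log2 fold change was -0.22 (SE 0.10, edgeR BH-adjusted p = 0.139). GrB-Fc-KS49 replicate 4 lay inside the IgG range. Aurka, the centrosomal aurora kinase, had 63.8 ± 3.71 CPM across GrB-Fc-KS49 tumours and 61.9 ± 3.5 CPM across IgG tumours (SD, n = 4 each). Aurka's log2 fold change was 0.04 (SE 0.07, edgeR BH-adjusted p = 0.687), with overlapping groups.

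Birc5 went the other way. It encodes survivin, the passenger complex subunit that brings Aurora B to the centromere and an inhibitor-of-apoptosis family member. Its level was 109.7, 76.5, 92.8 and 86.2 CPM across GrB-Fc-KS49 replicates 1 to 4, against 73.6, 69.6, 62.1 and 74.7 CPM across IgG replicates 1 to 4. All 4 treated tumours were higher than all 4 IgG tumours, replicate 1 most so and replicate 2 by the least. Birc5's log2 fold change was 0.38 (SE 0.12, edgeR BH-adjusted p = 0.0681). The other listed subunits of the complex, Incenp and Cdca8, had log2 fold changes of -0.05 and -0.03, and Aurkb, as above, was lower.

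In the spindle checkpoint group, Bub1, the kinase that marks centromeric chromatin and recruits checkpoint proteins to kinetochores (chromosome 2, 127643036 to 127673785, minus strand, GRCm39), was at 31.2, 40.5, 35.2 and 48.7 CPM across GrB-Fc-KS49 replicates 1 to 4, against 56.4, 48.2, 61 and 57 CPM across IgG replicates 1 to 4. It had the third most negative log2 fold change of the 36, -0.52 (SE 0.14, edgeR BH-adjusted p = 0.0627), although GrB-Fc-KS49 replicate 4 lay just above IgG replicate 2. Bub1b, which encodes the checkpoint protein BubR1, was at 63.6, 72.1, 66.9 and 78.5 CPM across GrB-Fc-KS49 replicates 1 to 4, against 82.2, 83, 89.8 and 86.9 CPM across IgG replicates 1 to 4. Its groups did not overlap. Bub1b's log2 fold change was -0.28 (SE 0.08, edgeR BH-adjusted p = 0.0634). Mad2l1, the checkpoint protein MAD2, also lay lower in every treated tumour, but by very little: it had 63.4 ± 2.15 CPM across GrB-Fc-KS49 tumours and 67.6 ± 1.6 CPM across IgG tumours (SD, n = 4 each). Mad2l1's log2 fold change was -0.09 (SE 0.06, edgeR BH-adjusted p = 0.271). Cdc20, the activator of the anaphase-promoting complex that MAD2 and BubR1 hold in check, had 116 ± 8.69 CPM across GrB-Fc-KS49 tumours and 118 ± 3.21 CPM across IgG tumours (SD, n = 4 each), with overlapping groups. Cdc20's log2 fold change was -0.03 (SE 0.07, edgeR BH-adjusted p = 0.774).

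Ube2c, the ubiquitin-conjugating enzyme of the anaphase-promoting complex, was at 141, 88, 90.5 and 97.2 CPM across GrB-Fc-KS49 replicates 1 to 4, against 85.3, 77.4, 91 and 87.8 CPM across IgG replicates 1 to 4. Replicate 1 alone was far above the rest, and the other treated tumours lay near the IgG tumours. Ube2c's log2 fold change was 0.29 (SE 0.15, edgeR BH-adjusted p = 0.201). Its gene (chromosome 2, 164611818 to 164620742, plus strand, GRCm39) shares 1662 bases with Tnnc2, the troponin C of fast skeletal muscle, on the opposite strand. Tnnc2 was at 167, 13.5, 16.7 and 1.70 CPM across GrB-Fc-KS49 replicates 1 to 4, against 6.76, 1.36, 1.56 and 4.22 CPM in IgG replicates 1 to 4, and so was also highest in replicate 1. The kit marks strand, but how the counting used it is not stated in these sources, and the part of Tnnc2 reads in the Ube2c value was not tested. In all, 13 members share bases with another gene of the table. Prc1 shares the most, 21810 with Rccd1 on the opposite strand, whose mean count was 4.92% of that of Prc1. Kif20a shares 2327 with Cdc23, Kif4 832 with Pdzd11, Ccna2 863 with Exosc9 and Cdc20 53 with Elovl1, each on the opposite strand. In that order, the neighbour's mean count was 46.2%, 88.1%, 29.5% and 81.7% of the member's. That of Tnnc2 was 28.4% of that of Ube2c. The part of neighbours' reads in these members' values was not tested.

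Of the 5 centromere and kinetochore members, 1 was lower and 1 higher at an unadjusted p under 0.05, shares near the 17.8% and 17.3% of all genes, and the median log2 fold change was -0.14. Cenpa, the histone H3 variant that marks centromeres, was at 113, 105, 125 and 112 CPM across GrB-Fc-KS49 replicates 1 to 4, against 100.1, 99.6, 93.2 and 105 CPM across IgG replicates 1 to 4. It was the other member higher at an unadjusted p under 0.05, with GrB-Fc-KS49 replicate 2 and IgG replicate 4 at about the same level. Cenpa's log2 fold change was 0.19 (SE 0.07, edgeR BH-adjusted p = 0.102). Nuf2 and Ndc80, partners in the NDC80 complex that grips microtubules, had log2 fold changes of -0.19 (SE 0.07, edgeR BH-adjusted p = 0.0987), and -0.14 (SE 0.07, edgeR BH-adjusted p = 0.202); Nuf2 was lower in all 4 treated tumours and Ndc80 overlapped. Cenpf, a large protein of the outer kinetochore, had 90.7 ± 11.9 CPM across GrB-Fc-KS49 tumours and 106 ± 3.68 CPM across IgG tumours (SD, n = 4 each). Cenpf's log2 fold change was -0.22 (SE 0.10, edgeR BH-adjusted p = 0.144). Cenpe, the kinetochore motor that carries chromosomes to the spindle equator, had 81.9 ± 8.83 CPM across GrB-Fc-KS49 tumours and 83.4 ± 5.04 CPM across IgG tumours (SD, n = 4 each). Cenpe's log2 fold change was -0.03 (SE 0.09, edgeR BH-adjusted p = 0.858), with GrB-Fc-KS49 replicate 2 the lowest and IgG replicate 4 the highest tumour.

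The kinesins, motors that slide, cross-link or shorten microtubules, all had negative log2 fold changes. Of the 9, 8 were lower at an unadjusted p under 0.05, against 17.8% of all genes, and in those 8 the groups did not overlap, against 15.3% of all genes. Their median was -0.33. In the fit with length and GC trends taken out, described further on, 7 of the 9 were negative and 4 lower, against 16.1% of all genes, with a median of -0.15. Kif11, the Eg5 motor that pushes spindle poles apart (chromosome 19, 37364851 to 37410307, plus strand, GRCm39), was at 65.6, 80.9, 81.1 and 86 CPM across GrB-Fc-KS49 replicates 1 to 4, against 104, 95.8, 106 and 101 CPM across IgG replicates 1 to 4. Replicate 1 was the lowest tumour and all treated tumours were below the lowest IgG tumour. Kif11's log2 fold change was -0.38 (SE 0.09, edgeR BH-adjusted p = 0.0619). Kif15, the motor that can share the pole-separating work of Eg5, was at 25.2, 26.8, 27.2 and 28.8 CPM across GrB-Fc-KS49 replicates 1 to 4, against 30.2, 33.3, 29.3 and 32.8 CPM across IgG replicates 1 to 4. Kif15's log2 fold change was -0.22 (SE 0.07, edgeR BH-adjusted p = 0.0834). Its treated tumours were lower by a narrow margin.

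Kif4, which compacts chromosome arms and shapes the anaphase midzone, was at 35.2, 41.6, 45.9 and 48.9 CPM across GrB-Fc-KS49 replicates 1 to 4, against 57.4, 54, 53.6 and 55 CPM across IgG replicates 1 to 4. Its log2 fold change was -0.36 (SE 0.10, edgeR BH-adjusted p = 0.0638). Kif14, which acts at the midbody with citron kinase, was at 19.7, 18.6, 20.7 and 22.7 CPM across GrB-Fc-KS49 replicates 1 to 4, against 24.3, 25.4, 25.1 and 26.1 CPM across IgG replicates 1 to 4. Kif14's log2 fold change was -0.30 (SE 0.08, edgeR BH-adjusted p = 0.0619). Both separated the groups, with the treated tumours lower. Of the motors that shorten microtubule ends, Kif2c, also called MCAK, was at 32.9, 37.9, 40 and 44.3 CPM across GrB-Fc-KS49 replicates 1 to 4, against 49.4, 45.8, 51 and 48.3 CPM across IgG replicates 1 to 4. Kif2c's log2 fold change was -0.33 (SE 0.10, edgeR BH-adjusted p = 0.0655). Kif18b, which limits astral microtubules, was at 18.1, 22.2, 25.8 and 28.2 CPM across GrB-Fc-KS49 replicates 1 to 4, against 31.1, 28.8, 28.5 and 30.3 CPM across IgG replicates 1 to 4. Kif18b's log2 fold change was -0.33 (SE 0.13, edgeR BH-adjusted p = 0.112); here replicate 4 came just under the lowest IgG tumour.

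Kif20a and Kif23, the motors of the central spindle that prepare cytokinesis, were both lower in every treated tumour. Kif20a was at 85, 100.01, 97.6 and 109 CPM across GrB-Fc-KS49 replicates 1 to 4, against 118, 109.7, 137 and 129 CPM across IgG replicates 1 to 4. Kif20a's log2 fold change was -0.33 (SE 0.10, edgeR BH-adjusted p = 0.0659). Kif23 had 58.6 ± 4.66 CPM across GrB-Fc-KS49 tumours and 66.8 ± 1.69 CPM across IgG tumours (SD, n = 4 each). Kif23's log2 fold change was -0.19 (SE 0.07, edgeR BH-adjusted p = 0.104). Kif20b was the one kinesin with overlapping groups: it had 43.7 ± 3.97 CPM across GrB-Fc-KS49 tumours and 49.3 ± 3.03 CPM across IgG tumours (SD, n = 4 each). Kif20b's log2 fold change was -0.17 (SE 0.08, edgeR BH-adjusted p = 0.171), and GrB-Fc-KS49 replicates 1 and 4 lay above the lowest IgG tumour.

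As counted, the largest differences among the members were in Aspm and Anln. In the fit with length and GC trends removed, described further on, Aurkb and Plk1 were the most negative, at -0.38 and -0.36. Anln was then at -0.35 and Aspm at -0.27. Aspm, a spindle-pole protein whose loss in humans causes microcephaly (chromosome 1, 139382510 to 139421829, plus strand, GRCm39), was at 17.5, 24.2, 26.7 and 31.9 CPM across GrB-Fc-KS49 replicates 1 to 4, against 37.3, 35.6, 37.4 and 37.2 CPM across IgG replicates 1 to 4. Replicate 1 stood far below the others, and the IgG tumours were nearly alike. Aspm's log2 fold change was -0.56 (SE 0.16, edgeR BH-adjusted p = 0.0644), a difference of -32.1%. Anln, the scaffold protein anillin of the cleavage furrow (chromosome 9, 22243308 to 22300484, minus strand, GRCm39), was at 73.9, 111, 86.2 and 115 CPM across GrB-Fc-KS49 replicates 1 to 4, against 146, 141, 148 and 128 CPM across IgG replicates 1 to 4. Replicates 1 and 3 were the lowest tumours, and no treated tumour reached the IgG range. Anln's log2 fold change was -0.55 (SE 0.14, edgeR BH-adjusted p = 0.0619). Prc1, which bundles antiparallel microtubules in the midzone, had 90.7 ± 9.79 CPM across GrB-Fc-KS49 tumours and 109 ± 5.47 CPM across IgG tumours (SD, n = 4 each). Prc1's log2 fold change was -0.27 (SE 0.09, edgeR BH-adjusted p = 0.0773). Nusap1, a spindle microtubule bundler, had 43.9 ± 3.06 CPM across GrB-Fc-KS49 tumours and 51.8 ± 3.12 CPM across IgG tumours (SD, n = 4 each). Nusap1's log2 fold change was -0.24 (SE 0.08, edgeR BH-adjusted p = 0.0744). Both were lower in every treated tumour. Tpx2, which activates Aurora A on spindle microtubules, had 123 ± 10.7 CPM across GrB-Fc-KS49 tumours and 138 ± 5.81 CPM across IgG tumours (SD, n = 4 each). Tpx2's log2 fold change was -0.17 (SE 0.08, edgeR BH-adjusted p = 0.156), with GrB-Fc-KS49 replicate 4 inside the IgG range.

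**Figure D3:**
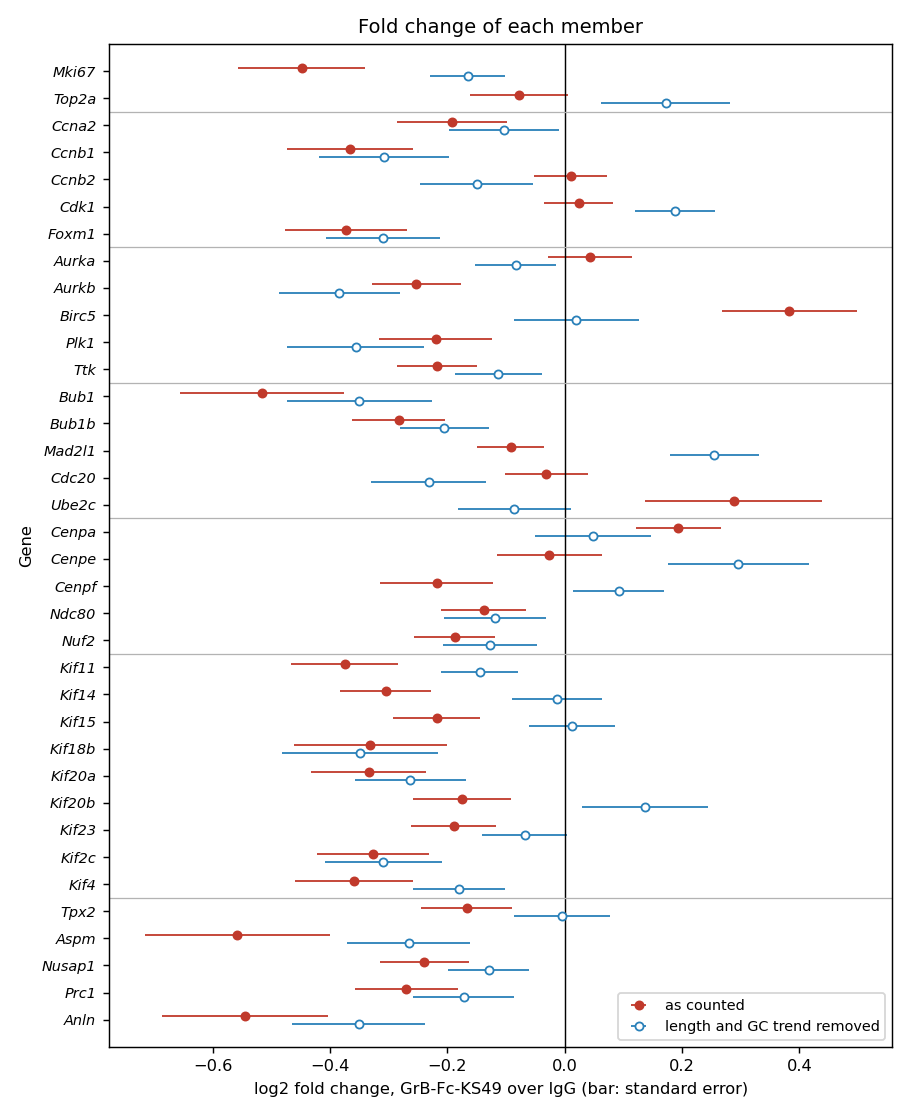
Log2 fold change of each member, GrB-Fc-KS49 over IgG (horizontal axis), with its standard error; filled red points are the counts as deposited and open blue points the same fit after each library's trend with transcript length and GC content was removed. As counted, 30 of 36 lie left of 0; after the removal 27 do, and Birc5 moves from 0.38 to 0.02.

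Per kilobase of transcript, which allows levels to be compared between genes, the highest mean levels in the treated tumours were those of Ube2c at 108, Birc5 at 96.4, Cenpa at 77.6 and Cdc20 at 64.5 CPM per kilobase, against 88.3, 73.9, 67.9 and 65.9 CPM per kilobase in IgG tumours. The lowest were Kif14 at 2.28 and Aspm at 2.54 CPM per kilobase in treated tumours, against 2.82 and 3.74 in IgG tumours. The most abundant transcripts per length thus included the 3 members with the highest log2 fold changes, Birc5, Ube2c and Cenpa, which are also short.

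Transcript length moved with the differences. Across the 36 members the log2 fold change and transcript length (GENCODE M21, the principal transcript of each gene) had a Spearman rho of -0.44, and across 14508 protein-coding genes tested it was -0.46; both are descriptions over genes of the same 8 libraries. The 7 members under 2000 bases had a median log2 fold change of 0.04, with 5 positive, against 0.25 for all protein-coding genes of that length. For the 14 members from 2000 to 4000 bases the median was -0.26 and none was positive, against -0.01 for all such genes. For the 15 members of 4000 bases or more it was -0.22, with 1 positive, against -0.21 for all such genes. In short and middle-length classes the members thus lay lower than other genes of their length, and in the long class they lay at the level of other long genes. The trend differed by library: its rho with length over 12669 genes was -0.45, -0.33, -0.20 and -0.08 in GrB-Fc-KS49 replicates 1 to 4, replicate 1 again lying farthest from the IgG tumours, against 0.38 to 0.45 in the IgG tumours.

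**Figure D4:**
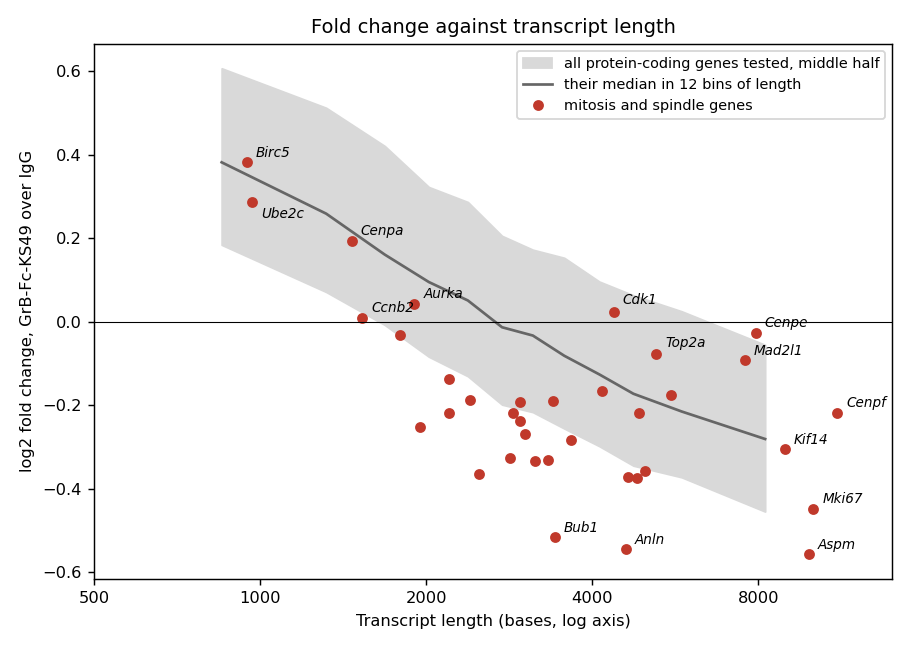
Log2 fold change, GrB-Fc-KS49 over IgG, against transcript length in bases on a log axis; red points are the 36 members, the line is the median of 14508 protein-coding genes in 12 bins of length and the band their middle 50%. Members between 2000 and 4000 bases lie mostly under the band, while Birc5, Ube2c and Cenpa lie on or near the line of other short genes.

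When each library's smooth trend with length and GC content was removed, the members' median was -0.13, against -0.03 over the 19341 genes covered. The members' log2 fold change then had a Spearman rho of 0.24 with length and -0.42 with GC content. Before the removal these were -0.44 and 0.10, and over protein-coding genes tested they were -0.01 and 0.02 after it. At an unadjusted p under 0.05 there were then 14 members lower, or 38.9%, against 16.1% of all genes, and 3 higher, Cdk1, Mad2l1 and Cenpe, against 10.9% of all genes; the smallest edgeR BH-adjusted p was 0.118. The principal transcript decides some of these values. The log2 fold change of Birc5 was 0.02 with its principal transcript of 947 bases and 0.47 with its longest of 3334 bases. Mad2l1 and Cdk1 were at 0.25 and 0.19 with principal transcripts of 7557 and 4375 bases, and at -0.03 and -0.05 with their shortest coding transcripts of 1725 and 1253 bases. Under all 3 choices of transcript (principal, longest, shortest coding), 11 members, or 30.6%, were lower at an unadjusted p under 0.05, against 11.0% of all genes: Mki67, Ccnb1, Foxm1, Aurkb, Plk1, Bub1, Kif2c, Kif18b, Kif20a, Aspm and Anln. Over those 3 choices the log2 fold change of Anln ran from -0.36 to -0.31, that of Bub1 from -0.37 to -0.31 and that of Mki67 from -0.17 to -0.16, while Kif11 ran from -0.16 to -0.11 and Kif14 lay at -0.01 with its principal transcript. Cenpe, one of the longest members, was the 1 member higher in all 3, from 0.29 to 0.31, against 8.67% of all genes. The part of RNA length in the differences of single members was not tested beyond these fits.

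The rest of the division machinery was read from 184 other genes, all tested. Of these, 71 were lower and 20 higher at an unadjusted p under 0.05, or 38.6% and 10.9%, against 17.8% and 17.3% of all genes tested, and the median log2 fold change was -0.13. None passed the edgeR BH-adjusted p of 0.05. Centrosome genes stood lowest, with 8 of 11 lower, 0 higher and a median of -0.41: Plk4, the kinase that starts centriole duplication, had 31.8 ± 7.25 CPM across GrB-Fc-KS49 tumours and 51.1 ± 2.85 CPM across IgG tumours (SD, n = 4 each), and Sass6, a protein of the centriole cartwheel, had 15.4 ± 3.23 CPM across GrB-Fc-KS49 tumours and 24.5 ± 1.2 CPM across IgG tumours (SD, n = 4 each). Cep192, which recruits the matter around centrioles, had a log2 fold change of -0.60. In the cytokinesis list 5 of 8 were lower and 0 higher, with a median of -0.26; Ect2, which activates RhoA at the furrow where anillin binds, had 34.7 ± 7.96 CPM across GrB-Fc-KS49 tumours and 58.4 ± 3.12 CPM across IgG tumours (SD, n = 4 each). Ect2's log2 fold change was -0.75 (SE 0.16, edgeR BH-adjusted p = 0.0619). Arhgap11a and Shcbp1 were at -0.26 and -0.38.

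Spindle microtubule proteins and motors had 13 of 26 lower and 1 higher, with a median of -0.20. Kif18a, the kinesin that damps chromosome oscillations, had 8.39 ± 1.56 CPM across GrB-Fc-KS49 tumours and 14.8 ± 1.63 CPM across IgG tumours (SD, n = 4 each). Its log2 fold change, -0.81 (SE 0.15, edgeR BH-adjusted p = 0.0619), was the most negative of the 184. In the same list Haus6, of the augmin complex, and Hmmr were at -0.49 and -0.36. Condensins had 4 of 8 lower and 0 higher, median -0.20, led by the condensin II subunits Ncapg2 and Ncapd3 at -0.49 and -0.44 and by Ncaph at -0.23. Of the passenger, cohesin protection and separase list, 4 of 7 were lower and 1 higher, median -0.25: the shugoshins Sgo2a and Sgo1 were at -0.37 and -0.33, and Pttg1, which encodes the short securin transcript of 948 bases, was higher, with 42.9 ± 4.64 CPM across GrB-Fc-KS49 tumours and 33.8 ± 1.06 CPM across IgG tumours (SD, n = 4 each).

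Kinetochore genes outside the members were mixed, with 8 of 30 lower, 6 higher and a median of -0.03. Knl1, the large scaffold to which BUB1 and BubR1 bind, had 25.3 ± 6.04 CPM across GrB-Fc-KS49 tumours and 43.8 ± 2.34 CPM across IgG tumours (SD, n = 4 each). Knl1's log2 fold change was -0.79 (SE 0.16, edgeR BH-adjusted p = 0.0619); Cenpc1 and Cenpi were at -0.65 and -0.46. The 6 higher ones, Cenpm, Cenps, Cenpw, Cenpx, Spc24 and Mis18a, named after their values were seen, have transcripts of 606 to 1532 bases. Checkpoint genes had 4 of 9 lower and 1 higher, median -0.18, with Kntc1 and Zwilch, partners in the RZZ complex, at -0.53 and -0.27, and Mad2l1bp, whose product helps to silence the checkpoint, at 0.30. The anaphase-promoting complex had 3 of 17 lower and 5 higher, median 0.02: the large subunits Anapc1 and Cdc27 were at -0.62 and -0.57, and the small RING subunit Anapc11 was at 0.37.

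Upstream of mitosis, regulators of CDK1 had 3 of 12 lower and 3 higher, median 0.00; Mastl and Wee1, kinases that promote and restrain mitotic entry, were at -0.48 and -0.47, and the small CDK subunit Cks2 was at 0.18. DREAM, MuvB and E2F factors had 10 of 19 lower and 0 higher, median -0.26, among them the pocket proteins Rbl1 and Rb1 at -0.41 and -0.34 and Lin54, the subunit that reads TTTGAA elements, at -0.65. DNA replication genes had 7 of 22 lower and 1 higher, median -0.13, with the polymerase subunit Pola1 at -0.46 and the ribonucleotide reductase genes Rrm2 and Rrm1 at -0.25 and -0.31. G1 cyclins, CDKs and their inhibitors had 2 of 15 lower and 2 higher, median 0.05: Ccne2, cyclin E2, had 11.7 ± 0.8 CPM across GrB-Fc-KS49 tumours and 16.3 ± 1.01 CPM across IgG tumours (SD, n = 4 each), Cdk6 was at -0.44 and the inhibitor Cdkn2d at 0.32.

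With the length and GC trends removed, counts at an unadjusted p under 0.05 are read against 16.1% of all genes lower and 10.9% higher. Centrosome genes then had 7 of 11 lower and 0 higher, with a median of -0.27. Spindle microtubule proteins and motors had 10 of 26 lower and 0 higher (median -0.15), cytokinesis genes 3 of 8 and 0 (-0.15), and the DREAM, MuvB and E2F list 6 of 18 and 1 (-0.16). Condensins had 3 of 8 lower and 2 higher (median -0.06), the passenger, cohesin protection and separase list 2 of 7 and 0 (-0.15), and checkpoint genes 2 of 9 and 0 (-0.16). Kinetochore genes had 5 of 30 lower and 2 higher (median -0.05), the anaphase-promoting complex 4 of 17 and 2 (-0.04), and regulators of CDK1 3 of 12 and 2 (-0.01). DNA replication genes had 4 of 22 lower and 0 higher (median -0.10) and the G1 list 2 of 15 and 1 (-0.02). Among the members, the spindle-binding and cleavage furrow group had 2 of 5 lower and a median of -0.17, and the centromere and kinetochore group 0 lower, 1 higher and a median of 0.05.

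**Figure D5:**
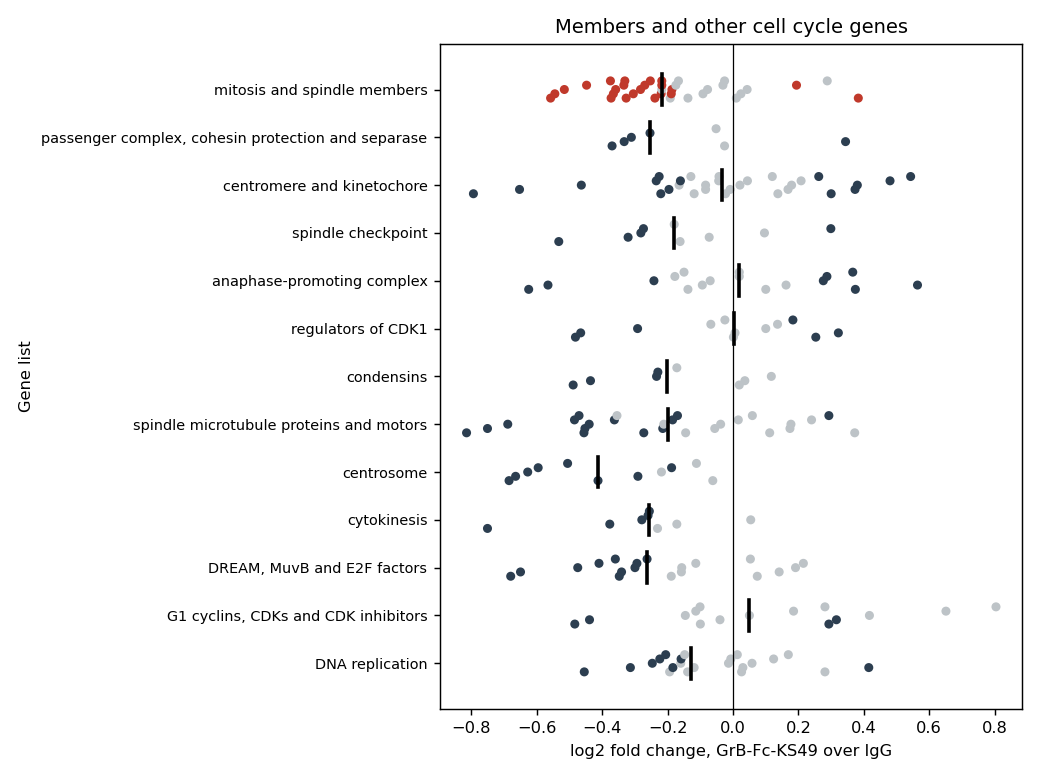
Log2 fold change, GrB-Fc-KS49 over IgG (horizontal axis), of the 36 members (top row, red) and of 184 other genes in 12 lists; coloured or dark points have an unadjusted p under 0.05 in edgeR, pale points do not, and the bar is the list's median. The centrosome row lies wholly left of 0 with a median of -0.41, while kinetochore, anaphase-promoting complex, CDK1 regulator and G1 rows straddle it.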

How the data were processed

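Libraries were made with a stranded mRNA kit (dUTP second strand), per the labels' protocols. Per the submitters' processing notes the tools were bcl2fastq 2.19.1.403 and STAR, and the genome GRCm39. The STAR version, quantifier, annotation and strand setting are not stated in these sources. The deposited table holds estimated counts per gene (46.0% to 47.8% of values whole), and a second deposited table holds CPM. Counts totalled 74.0 to 82.6 M (1e6) per library, and the members' mean levels were 22.8 to 312 CPM.

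Estimated counts were rounded. The main test was edgeR 4.0.16 (filterByExpr, TMM, robust quasi-likelihood F test) over 19718 genes with group as the only term and Benjamini-Hochberg adjustment. This fit was also run on simulated counts drawn without a length or GC trend. That run cannot show how such trends act on the fit. DESeq2 1.42.0, limma 3.58.1 (voom; log2 of the deposited CPM plus 1 or 0.25), other scalings and filters, and each library left out in turn were alternatives. Trends with transcript length and GC content (GENCODE M21, matched by gene ID for 25863 of 26709 genes and all 36 members) were fitted per library with mgcv 1.9.3 and entered as offsets. Replicates are numbered within each group in the order the samples are listed, and the numbers pair nothing. The title of 1 library per group (IgG replicate 1, GrB-Fc-KS49 replicate 3) ends in U, which no label explains.

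The members and all gene lists were chosen with earlier results of these data known. All 36 members are named; from each other list up to 3 genes with the smallest unadjusted p are named, and others only where a count or a list needs them. No list was tested as a set. Files give gene positions on GRCm39, and promoter windows are RefSeq's on GRCm38.p6; no window of Ccna2, Foxm1, Aurkb, Kif20a or Tpx2 was used.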

Additional observations from a re-analysis of the deposited data

Results flagged for a closer look

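In 6 of 96 groups of 4 values, 1 tumour stood apart from the other 3, by a gap that was a larger share of the group's range than Dixon's critical value; chance gives about 1 such group in 20. Among the members these lay in the IgG group: the gap was 0.872 of the range for Ccnb2, where replicate 1 was the highest, 0.892 for Cenpe, where replicate 4 was the highest, and 0.898 for Aspm, where replicate 2 was the lowest. The ranges themselves were narrow for Ccnb2 (52.3 to 54.0 CPM) and Aspm (35.6 to 37.4 CPM). In the GrB-Fc-KS49 group the summed skeletal muscle markers had a gap of 0.856, with replicate 1 the highest, the summed skin markers one of 0.995, with replicate 2 the highest, and Tnnc2, the opposite-strand neighbour of Ube2c, one of 0.909, with replicate 1 the highest. The part of these tumours' marker levels in the members' values was not tested.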

How the results depend on the processing

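Over 23 alternatives, 23 of the 36 members kept the sign of their log2 fold change in every one, and 754 of 828 values kept both sign and side of the threshold; 40 others passed an adjusted p of 0.05, and 34 changed sign. With each library left out in turn, 14 to 24 members were lower at an unadjusted p under 0.05 and 1 to 3 higher. Of all genes, 11.4% to 18.9% were lower and 12.1% to 20.1% higher in those fits. From 0 to 15 members were called lower, against 0% to 10.0% of all genes. Without overlap, 14 to 24 members were lower, against 14.2% to 19.4% of all genes. From 1 to 3 were higher without overlap, against at least 10.8% of all genes in each fit. The members' median ran from -0.26 to -0.18. Calls at an adjusted p under 0.1 in edgeR were 18 lower and 1 higher. The share of all genes at that cut is not given here. DESeq2 at 0.05 called 17 lower, against 12.6% of all genes, and 1 higher, against 11.5%. With sample weights, limma-voom called 4 lower, against 4.08% of all genes. The count lower without overlap was 11 under upper quartile scaling (11.7% of all genes) and 12 on library totals (13.6%). It was 12 under the stricter filter (15.4%) and 13 on log2(CPM + 1) and log2(CPM + 0.25) (13.7% each). After trend removal with the principal, longest and shortest transcript it was 9, 11 and 8, against 13.8%, 14% and 13.3%. The count higher without overlap was 2 under RLE scaling and in DESeq2, against 10.7% of all genes in each. It was 3 under upper quartile scaling (13.3%). After the 3 trend removals it was 2, 3 and 0, against 5.3%, 5.31% and 6.66%. The count higher at an unadjusted p under 0.05 was 1 without both U libraries, against 13.9% of all genes. It was 4 with the longest transcript and 1 with the shortest, against 11.0% and 12.7%. With the shortest, 13 were lower, against 15.4% of all genes, and the median was -0.10. The longest and shortest transcripts were chosen after seeing the data.

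Signs changed mostly in the trend removals. With the principal transcript the log2 fold change was 0.17 for Top2a, -0.15 for Ccnb2, -0.08 for Aurka, 0.25 for Mad2l1, -0.09 for Ube2c, 0.30 for Cenpe, 0.09 for Cenpf, 0.01 for Kif15 and 0.14 for Kif20b. With the longest it was 0.16 for Top2a, -0.17 for Ccnb2, -0.11 for Aurka, 0.25 for Mad2l1, 0.29 for Cenpe, 0.09 for Cenpf and 0.13 for Kif20b. With the shortest it was 0.21 for Top2a, -0.04 for Ccnb2, -0.05 for Cdk1, -0.09 for Cenpa, 0.31 for Cenpe, 0.10 for Cenpf, 0.05 for Kif15, 0.16 for Kif20b and 0.001 for Tpx2. Upper quartile scaling gave 0.03 for Cdc20 and for Cenpe, and Ccnb2 was at -0.01 with no low-count filter and without both U libraries. With 1 library left out, Ccnb2 ran from -0.02 (without GrB-Fc-KS49 replicate 3) to 0.04. Cdc20 ran from -0.07 to 0.02 and Cenpe from -0.07 to 0.05, the positive ends both without GrB-Fc-KS49 replicate 2; Cenpe was also at 0.03 without IgG replicate 4. The cause of the other moves was not tested. No paired analysis was possible because the replicate numbers only name the samples.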
